A study of Mus musculus with 6 samples.

Results

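The genes described here are 45 genes of the ATF4 branch of the stress response: ATF4 and its partner transcription factors, the eIF2 kinases above them, enzymes that make amino acids, amino acid transporters and cytosolic tRNA synthetases. They were taken by symbol from a list, and all 45 were found among the 46095 gene symbols of the count table. RNA was sequenced from BV2 cells, an immortalized mouse microglial line, in 3 libraries of untreated cells (CON group) and 3 libraries of cells given recombinant sTREM-1 for 6 h at a concentration of 1 μg/mL (sTREM-1 group). sTREM-1 is the soluble form of the receptor TREM-1, and the comparison asks how it changes the mRNA of microglia-like cells. The CON group is described as untreated, and no vehicle or control protein is named for it. All libraries come from the same cell line, and nothing says that they were independent cultures, so p-values measure only the spread between these libraries, which may be technical.

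When amino acids run short or proteins misfold, kinases such as GCN2 and PERK phosphorylate the initiation factor eIF2, which slows most translation while the mRNA of Atf4 is translated better. The ATF4 protein then dimerizes with C/EBP proteins and turns on genes for amino acid synthesis, uptake and tRNA charging. Because ATF4 is set largely by translation and protein stability, its mRNA level alone does not report its activity. Macrophages and microglia use these genes for protein synthesis and for serine and one-carbon metabolism during activation.

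ATF4 and C/EBP dimers bind a composite DNA element, and a simple form of it (TGATGNAA, read on both strands, so also TTNCATCA) was searched in RefSeq promoter windows of GRCm38.p6, from 250 bases before to 50 bases after the start of a gene. Windows were found for 35 of the 45 genes, and 12 of the 35 held the motif, which is 34.3%, against 4.51% of all genes with a window and 3.97% of all windows. The list holds known ATF4 targets, so the higher share can follow from how the genes were chosen and is no test. The 4 stretches below are shown because they belong to genes that passed the test and carry a motif wholly before the start, in a gene pair that was lower (Nupr1, Asns) and a gene pair that was higher (Aars, Tars). Capitals mark the 8 matching bases, and each line is read 5′ to 3′ on the strand of its gene.
Nupr1, chr7:126625543-126625610, minus strand: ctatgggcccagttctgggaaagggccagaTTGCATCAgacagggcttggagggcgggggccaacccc
Asns, chr6:7693210-7693262, minus strand: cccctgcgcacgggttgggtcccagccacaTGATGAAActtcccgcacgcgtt
Aars, chr8:111033700-111033767, plus strand: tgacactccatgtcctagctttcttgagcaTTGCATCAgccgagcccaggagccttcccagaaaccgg
Tars, chr15:11399659-11399703, minus strand: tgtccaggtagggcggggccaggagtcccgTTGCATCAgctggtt
Nupr1, Aars and Tars share the same 8 letters on the same strand, although Nupr1 fell and the other two rose. The motif is a match of letters only, and binding of ATF4 was not measured.

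After the removal of genes with too few counts, 42 of the 45 genes were tested, together with 14078 others. A gene is called changed here when its p-value in the quasi-likelihood test of edgeR, after Benjamini-Hochberg adjustment over all tested genes, is under 0.05, and adjusted p below always means this value. Of the 42 genes, 5 were called higher and 16 called lower after sTREM-1, which is 11.9% and 38.1%. Among all tested genes 30.5% were called, with 16.5% called higher and 14.1% called lower. That balance turned with the scaling, from 2324 higher and 1988 lower to 2029 and 2279 with library totals and 1977 and 2383 with upper-quartile factors, where the listed genes were 4 higher and 17 lower. Genes with many counts are called more easily, and among genes with a mean of at least 20 CPM (counts divided by the scaled library total) the shares were 25.1% higher and 20% lower (1892 and 1508 of 7527 genes), against 12.5% and 40% of the 40 listed genes at that level. The share that was lower thus exceeded both backgrounds and the share that was higher was below both. The changes were small. The median log2 fold change of the 42 genes was -0.03, against -0.002 for all tested genes. Of the 5 genes called higher, 0 reached a 1.2-fold change, and of the 16 called lower 4 did (Nupr1, Slc7a5, Slc1a4 and Wars). Of all 14120 tested genes, 836 were called higher and 681 lower with at least that change, together 10.7%. At 20 CPM or more they were 474 higher and 256 lower of 7527 genes. The 3 CON and the 3 sTREM-1 values did not overlap for 25 of the 42 genes (59.5%), against 40.7% of all tested genes, and at 20 CPM or more the shares were closer, 62.5% against 54.2%. Of the genes with a promoter window, the motif above was present in 2 of the 4 called higher, 4 of the 12 called lower and 5 of the 17 not called.

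**Figure D1:**
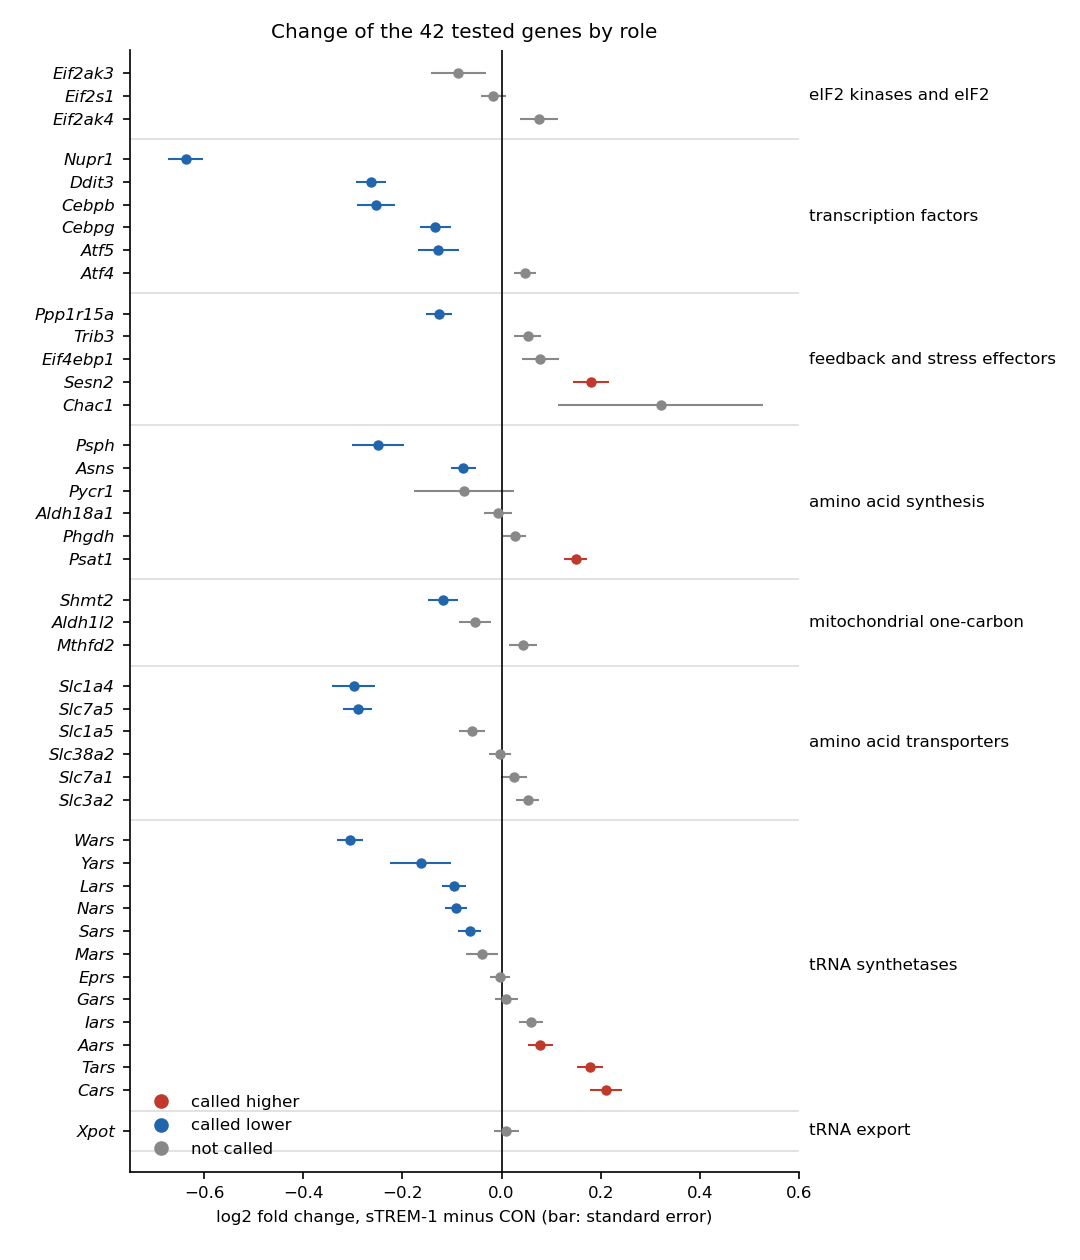
Log2 fold change (horizontal axis, sTREM-1 minus CON) of the 42 tested genes, grouped by role, with bars of 1 standard error. Red points were called higher (5 genes), blue points lower (16 genes) and gray points were not called; Nupr1 lies farthest from 0 at -0.64, and all called transcription factor genes are on the lower side.

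No change passed the test for the eIF2 kinase genes Eif2ak3 and Eif2ak4 or for Eif2s1. The eIF2 kinase genes Eif2ak1 and Eif2ak2, described further below with other eIF2 pathway genes, were called higher. Eif2ak3, which encodes the endoplasmic reticulum kinase PERK, had 28.2, 29.6 and 29.5 CPM in the CON libraries and 28.4, 26.2 and 27.5 CPM after sTREM-1. Eif2ak4, which encodes GCN2, the kinase that senses uncharged tRNA, had 69.4, 71.0 and 67.8 CPM and then 70.0, 74.8 and 74.6 CPM. For Eif2s1, the phosphorylated subunit of eIF2 itself, the means were 293 ± 5.81 and 290 ± 1.83 CPM (SD, n = 3 each). The ranges of the groups overlapped for Eif2ak3, Eif2ak4 and Eif2s1. The 95% intervals of their log2 fold changes ran from -0.20 to 0.03, from -0.004 to 0.15 and from -0.07 to 0.03, in the same order.

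Atf4 itself kept a high level in both groups. It had 630, 613 and 612 CPM in the CON libraries and 640, 622 and 654 CPM after sTREM-1, so that 1 sTREM-1 library lay within the CON range. The fitted difference was 0.05 on the log2 scale (standard error 0.02, adjusted p = 0.126), with a 95% interval from 0.0004 to 0.09. Without sTREM-1 replicate 2 it was 0.06 and passed the test (adjusted p = 0.0457), without sTREM-1 replicate 3 it was 0.03 (adjusted p = 0.406), and it did not pass without any of the other libraries.

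The other 5 transcription factor genes all fell, and in each of them every sTREM-1 library was below every CON library. Groups that did not overlap, in either direction, were common, at 40.7% of all tested genes and 54.2% of those at 20 CPM or more. Nupr1, which encodes a small stress-induced chromatin protein, had 95.8, 97.5 and 94.3 CPM in the CON group and 60.6, 61.0 and 63.5 CPM after sTREM-1. The fold change was -0.64 on the log2 scale (standard error 0.04, adjusted p = 1.8e-14), a decrease of 35.7% and the largest among the 42 genes. Ddit3, which encodes CHOP, a C/EBP-related factor of prolonged stress, had 139, 140 and 145 CPM and then 117, 118 and 118 CPM. The log2 fold change was -0.26 (standard error 0.03, adjusted p = 4.0e-08), just short of the 1.2-fold line. Both genes thus separated widely between groups whose libraries were close to each other.

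Cebpb, a C/EBP factor of macrophage activation, was more variable, with 273, 247 and 233 CPM in the CON libraries and 207, 204 and 221 CPM after sTREM-1. The gap between the groups was smaller than the spread of the CON libraries, and the log2 fold change was -0.25 (standard error 0.04, adjusted p = 3.8e-06). Cebpg, a dimer partner of ATF4, had 214, 219 and 217 CPM and then 199, 209 and 185 CPM (log2 fold change -0.13, standard error 0.03, adjusted p = 0.00155). Atf5, a close relative of ATF4, had 72.8, 71.0 and 68.9 CPM and then 64.7, 61.5 and 68.6 CPM. Its groups nearly touched (log2 fold change -0.13, standard error 0.04, adjusted p = 0.0174), and it lost the call without CON replicate 1, sTREM-1 replicate 1 or sTREM-1 replicate 2, with adjusted p-values up to 0.121.

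**Figure D2:**
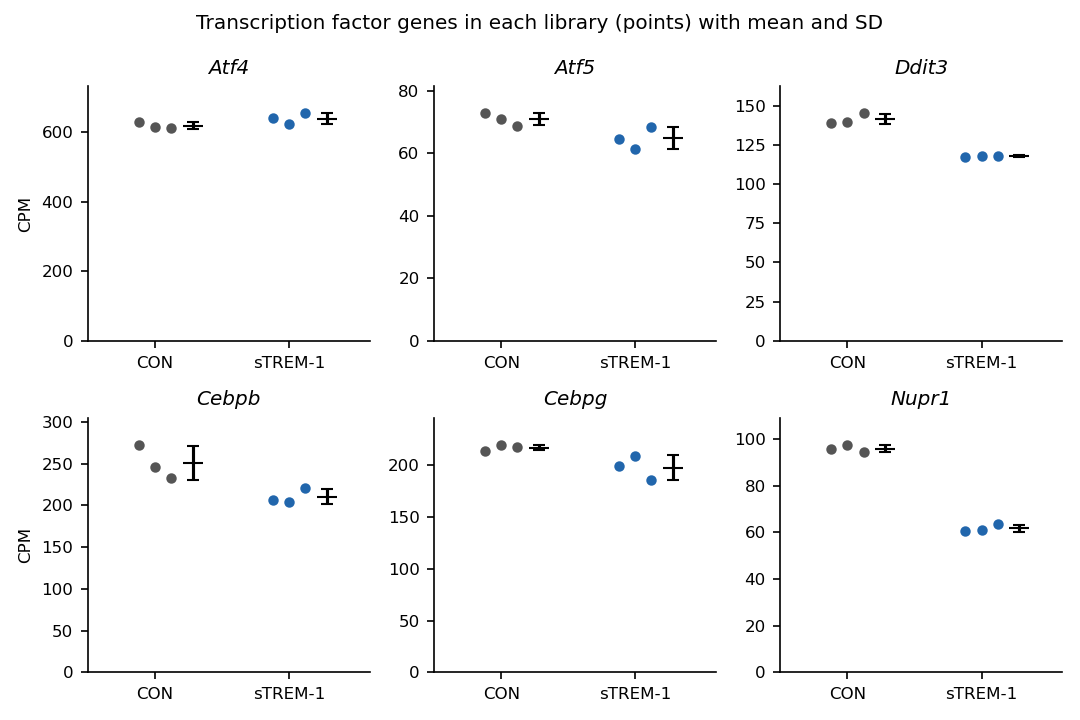
CPM (vertical axes, from 0) of the 6 transcription factor genes in each CON library (gray points) and each sTREM-1 library (blue points), with the mean and SD of 3 libraries beside them. The groups overlap for Atf4 and do not overlap for Atf5, Ddit3, Cebpb, Cebpg and Nupr1, which were lower after sTREM-1.

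The feedback and effector genes went in different directions. Sesn2, which encodes a leucine-binding inhibitor of mTORC1, rose from 82.1, 78.0 and 85.2 CPM to 93.9, 90.9 and 93.2 CPM (log2 fold change 0.18, standard error 0.04, adjusted p = 2.6e-04). Ppp1r15a, which encodes GADD34, the phosphatase subunit that reverses eIF2 phosphorylation, fell from 263, 262 and 269 CPM to 243, 236 and 247 CPM (log2 fold change -0.13, standard error 0.03, adjusted p = 2.9e-04). Neither gene had overlapping groups. Trib3, which encodes a pseudokinase that restrains ATF4 and AKT, had 185 ± 2.15 and 192 ± 5.19 CPM (SD, n = 3 each) and did not pass the test (log2 fold change 0.05, adjusted p = 0.168, 95% interval -0.005 to 0.11). Eif4ebp1, a repressor of cap-dependent translation, had 91.4 ± 3.88 and 96.5 ± 3.53 CPM (adjusted p = 0.110). It passed only without CON replicate 2 (adjusted p = 0.0486). Chac1, a glutathione-degrading enzyme that responds strongly to ATF4 and CHOP, stood at 78, 111 and 81 counts in CON and at 106, 107 and 136 counts in sTREM-1. With so few counts a change of its size could not be told from 0, since the 95% interval of its log2 fold change ran from -0.10 to 0.74. Vldlr, a lipoprotein receptor gene, had 0 counts in all 6 libraries, which allows at most 3 counts per library, and was not tested.

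In the serine pathway the 3 enzymes did not move together. Phgdh, the entry enzyme, had 456, 462 and 453 CPM in the CON group and 469, 452 and 476 CPM after sTREM-1, and its groups overlapped (adjusted p = 0.444). Psat1, the aminotransferase that follows, rose from 296, 298 and 295 CPM to 329, 328 and 327 CPM (log2 fold change 0.15, standard error 0.02, adjusted p = 1.0e-05). Psph, the phosphatase that ends the pathway, fell from 40.8, 44.0 and 37.8 CPM to 34.8, 33.9 and 34.4 CPM (log2 fold change -0.25, standard error 0.05, adjusted p = 3.8e-04). The Psat1 libraries were nearly identical within each group, so that a rise of 10.9% separated them clearly.

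Of the other amino acid enzymes, only Asns passed. Asns, which makes asparagine and is a classical ATF4 target, had 263, 273 and 270 CPM in the CON group and 256, 251 and 257 CPM after sTREM-1. The groups did not overlap (log2 fold change -0.08, standard error 0.03, adjusted p = 0.0193), but the call was lost without CON replicate 2, CON replicate 3 or sTREM-1 replicate 2, with adjusted p-values up to 0.0803. The proline enzymes Aldh18a1 and Pycr1 had means of 238 ± 4.03 and 8.88 ± 0.845 CPM in the CON group and 237 ± 8.26 and 8.43 ± 0.462 CPM after sTREM-1 (SD, n = 3 each). Their adjusted p-values were 0.884 and 0.632. Cth and Cbs, the enzymes that make cysteine from homocysteine, were nearly absent, and neither was tested. Cth had 6, 1 and 0 counts in CON and 1, 0 and 0 in sTREM-1, and Cbs had 1 count in 1 CON library and 0 in the others.

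The mitochondrial folate enzymes changed little. Shmt2, which splits serine to glycine, fell from 268, 255 and 268 CPM to 243, 232 and 255 CPM (log2 fold change -0.12, standard error 0.03, adjusted p = 0.00280), and its highest sTREM-1 library almost reached its lowest CON library. Mthfd2, the next step of the pathway, had 212 ± 4.53 and 218 ± 7.11 CPM (SD, n = 3 each, adjusted p = 0.274). Aldh1l2, which oxidizes formyl-tetrahydrofolate in mitochondria, had 108 ± 2.18 and 104 ± 1.40 CPM (adjusted p = 0.226).

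Among the 6 transporter genes, the largest differences were in Slc7a5 and Slc1a4. Slc7a5, the light chain of the leucine transporter LAT1, fell from 174, 171 and 171 CPM to 143, 136 and 144 CPM (log2 fold change -0.29, standard error 0.03, adjusted p = 3.7e-09). Slc3a2, the heavy chain that pairs with it, had 354, 350 and 355 CPM and then 363, 360 and 376 CPM. The groups of Slc3a2 were apart in the other direction, but its log2 fold change of 0.05 (standard error 0.02) did not pass the test (adjusted p = 0.106). Slc1a4, an alanine, serine and cysteine transporter, fell from 50.9, 51.4 and 49.5 CPM to 41.5, 41.6 and 40.4 CPM (log2 fold change -0.30, standard error 0.04, adjusted p = 2.75e-06). Its relative Slc1a5, which imports glutamine, had 192 ± 0.897 and 184 ± 1.23 CPM (SD, n = 3 each) and non-overlapping groups, with a log2 fold change of -0.06 (adjusted p = 0.0881). It was called only when libraries were scaled by their totals or by upper quartiles. Slc7a1, the cationic amino acid transporter, and Slc38a2, a glutamine and alanine transporter induced by amino acid starvation, had adjusted p-values of 0.527 and 0.931 and 95% intervals from -0.03 to 0.08 and from -0.05 to 0.04.

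The synthetase genes, whose products attach amino acids to their tRNAs, split into both directions. Of the 12 genes, 3 were higher, 5 were lower and 4 did not pass, so that 8 were called, and their median log2 fold change was -0.02. The shares were 25% higher and 41.7% lower, against 16.5% and 14.1% of all tested genes. All 12 had at least 20 CPM, where the background was 25.1% higher and 20% lower, so only the lower share was above it. Wars, the tryptophan enzyme and also a known interferon-induced gene, fell from 322, 322 and 330 CPM to 257, 257 and 273 CPM (log2 fold change -0.31, standard error 0.03, adjusted p = 1.6e-10). Cars, for cysteine, rose from 88.0, 86.5 and 87.9 CPM to 102, 101 and 100 CPM (log2 fold change 0.21, standard error 0.03, adjusted p = 6.55e-06). Tars, for threonine, rose from 187, 186 and 193 CPM to 217, 211 and 212 CPM (log2 fold change 0.18, standard error 0.03, adjusted p = 5.3e-06). In all 3 genes the groups were far apart compared with the spread within them.

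The other synthetase calls were smaller, from a fall of 10.7% in Yars to a rise of 5.59% in Aars. Lars and Nars, for leucine and asparagine, had log2 fold changes of -0.10 and -0.09 (standard error 0.02 for both, adjusted p = 0.00329 and 0.00192) and groups that did not overlap. Nars had 696, 687 and 694 CPM in the CON libraries and 657, 630 and 662 CPM after sTREM-1. Aars, Sars and Yars, for alanine, serine and tyrosine, had log2 fold changes of 0.08, -0.06 and -0.16 with adjusted p-values of 0.0172, 0.0377 and 0.0426. These last 3 calls were the least stable. Each was lost when certain single libraries were left out, with adjusted p-values of up to 0.153 for Aars, 0.159 for Sars and 0.161 for Yars. Without sTREM-1 replicate 3 the Aars value dropped from 0.078 to 0.046. The Aars call was also lost when libraries were scaled by their totals or by upper quartiles, the Yars call with DESeq2 (adjusted p = 0.0505) and with no filter on low counts (0.0637), and the Sars call with no filter (0.0722).

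Iars, Mars, Eprs and Gars did not pass. Iars, for isoleucine, had 352, 347 and 360 CPM and then 361, 369 and 373 CPM, so that its groups were just apart (log2 fold change 0.06, adjusted p = 0.0637). Mars, for methionine, had 101 ± 1.47 and 98.5 ± 1.27 CPM (adjusted p = 0.388). Eprs, a joint enzyme for glutamate and proline, had 995 ± 5.29 and 993 ± 16.2 CPM, and Gars, for glycine, 299 ± 0.769 and 301 ± 3.28 CPM (SD, n = 3 each). Xpot, which exports tRNA from the nucleus, had 282 ± 4.58 and 283 ± 5.19 CPM. For Eprs, Gars and Xpot the 95% intervals of the log2 fold changes stayed between -0.04 and 0.06.

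**Figure D3:**
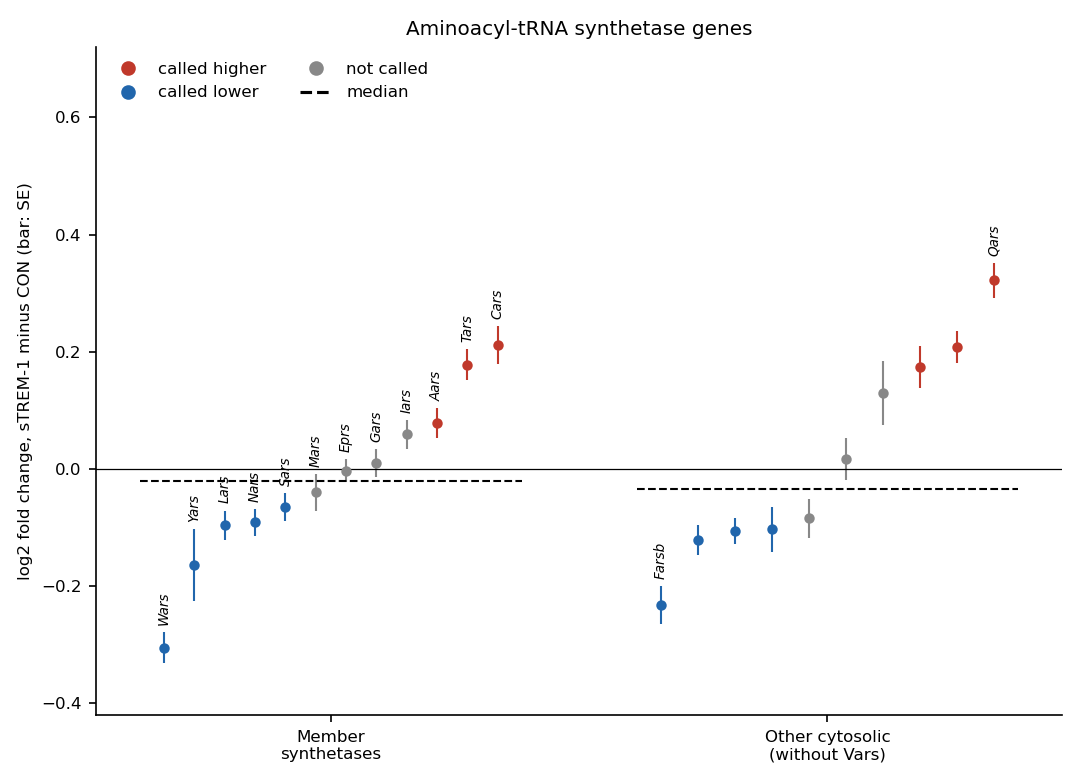
Log2 fold change (vertical axis, sTREM-1 minus CON, bars of 1 standard error) of the 12 synthetase genes described here and of other cytosolic synthetase and scaffold genes, of which those named in the text are labelled. Dashed lines mark medians over the genes drawn, and the low-count gene Vars, at 1.88, is left out. Red, blue and gray points are genes called higher, called lower and not called; genes of both directions stand in both groups.

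A ratio of 2 genes within a library does not depend on how libraries are scaled, and 6 such pairs were formed after the values had been seen. Nupr1 had 0.152, 0.159 and 0.154 reads per Atf4 read in the CON libraries and 0.0947, 0.0980 and 0.0970 after sTREM-1. Ddit3 per Atf4 was 0.221, 0.228 and 0.237 and then 0.183, 0.189 and 0.181. Slc7a5 per Slc3a2 was 0.492, 0.490 and 0.482 and then 0.393, 0.378 and 0.383. In all of these the sTREM-1 libraries were lower than every CON library. Psph per Psat1 went from 0.138 ± 0.00975 to 0.105 ± 0.00134, and Wars per Tars from 1.72 ± 0.00798 to 1.23 ± 0.0525 (SD, n = 3 each). For these 5 pairs a two-sided exact permutation test gave p = 0.1, the smallest that 3 libraries against 3 allow. Because the genes were paired with their values known, this p-value is no independent test of the calls above. Cebpb per Cebpg overlapped between the groups, with 1.16 ± 0.104 and 1.07 ± 0.110 (SD, n = 3 each, exact permutation p = 0.4).

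**Figure D4:**
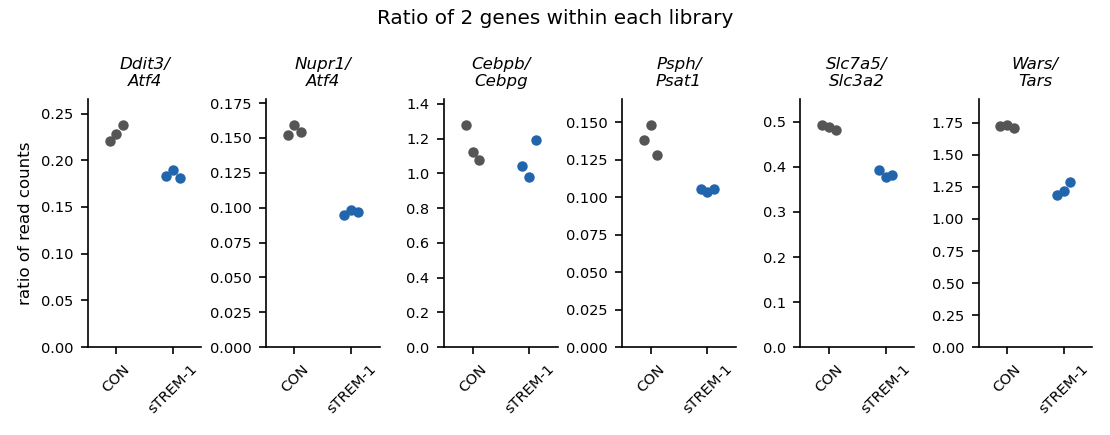
Ratio of the read counts of 2 genes within each library (vertical axes, from 0) for 6 gene pairs, with CON libraries in gray and sTREM-1 libraries in blue. The groups are apart for 5 pairs, all lower after sTREM-1, and overlap for Cebpb per Cebpg.

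Other genes of the same pathways, 93 in 7 lists, were set beside these, and 88 were tested, of which 26 (29.5%) were higher and 19 (21.6%) lower. Their median log2 fold change was 0.02. The shares among all tested genes were 16.5% and 14.1%, and among genes at 20 CPM or more they were nearer, 25.1% and 20%. Counts of the single lists below are to be read beside these shares. In the list of other eIF2 pathway genes, 6 of 14 were higher and 2 lower. It included Eif2ak2, the double-stranded RNA sensor PKR and an interferon-induced gene, with 122 ± 0.775 CPM in CON and 149 ± 4.21 CPM in sTREM-1 (SD, n = 3 each, log2 fold change 0.29, adjusted p = 6.4e-09), and Eif2b3, a subunit of the exchange factor that recharges eIF2, which was lower (log2 fold change -0.21, adjusted p = 1.8e-04). Eif2ak1, which encodes the heme-regulated eIF2 kinase, was also higher (log2 fold change 0.28, adjusted p = 5.1e-06). It is outside the naming rule and is given to complete the eIF2 kinases, whose differences from each other were not tested.

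Of the other known ATF4 targets, 3 of 13 tested were higher and 4 lower. Ddit4, an mTORC1 inhibitor that also responds to hypoxia, rose from 74.5 ± 5.04 to 99.7 ± 1.76 CPM (SD, n = 3 each, log2 fold change 0.42, adjusted p = 1.0e-09). Sqstm1, the autophagy receptor p62, fell from 3541 ± 98.7 to 2904 ± 97.6 CPM (log2 fold change -0.29, adjusted p = 5.6e-12). Of the other one-carbon genes, 4 of 11 tested were higher and 1 was lower. Mthfd1, the cytosolic folate enzyme, rose by 0.49 on the log2 scale (adjusted p = 2.2e-11). Mthfd2l, a mitochondrial enzyme, fell by 0.35 on the log2 scale (adjusted p = 0.0231). Mthfd1l, also mitochondrial, rose by 0.43 on the log2 scale (adjusted p = 5.2e-11) and is named after its values were seen.

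Of the remaining cytosolic synthetase and scaffold genes, 4 of 11 were higher and 4 lower, with Qars for glutamine up (log2 fold change 0.32, adjusted p = 5.2e-10) and Farsb for phenylalanine down (log2 fold change -0.23, adjusted p = 1.5e-06). Vars, for valine, was listed at 6, 19 and 14 counts in CON and at 24, 42 and 81 counts in sTREM-1. Vars passed the test and is counted among the higher genes of this list (log2 fold change 1.88, adjusted p = 0.00211). It is named after its values were seen, and with so few counts its value is uncertain. Of the 17 mitochondrial synthetases, 4 were higher and 1 lower, the latter being Mars2 (log2 fold change -0.17, adjusted p = 0.0393). Among other transporters 2 of 9 tested were higher and 3 lower. Slc43a2, another carrier of large neutral amino acids, rose by 0.33 on the log2 scale (adjusted p = 1.2e-09), in contrast to Slc7a5, and the lysosomal transporter Slc38a7 fell by 0.20 on the log2 scale (adjusted p = 6.6e-07). Of 13 tested genes of other amino acid metabolism, 3 were higher and 4 lower, with ornithine aminotransferase Oat higher (log2 fold change 0.17, adjusted p = 2.4e-04).

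Levels of different genes were compared only after division by the length of their exons. On that scale Atf4 was the highest of the 45 genes in the CON group, with 262 CPM per kilobase, followed by Phgdh with 184, Cebpb with 167 and Nars with 159 CPM per kilobase. Nupr1, Cebpg and Atf5 stood at 38.1, 38.5 and 35.6 CPM per kilobase, and Psph, at 9.44, was below Psat1 at 69.6 and Phgdh. Chac1 and Pycr1 were the lowest tested genes, with 1.34 and 2.26 CPM per kilobase. Exon lengths were taken as the union of all annotated exons, so genes with long minor transcripts are placed too low.

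**Figure D5:**
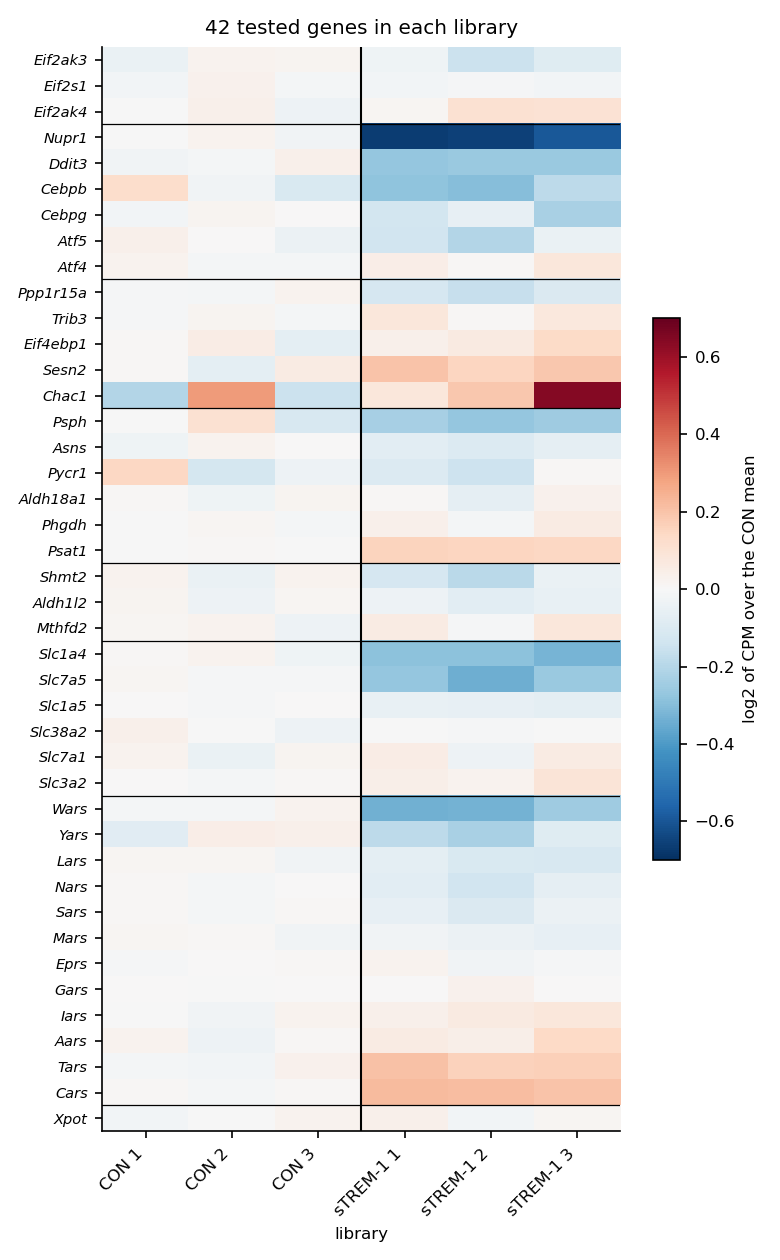
Log2 of the CPM in each library (columns) over the CON mean for the 42 tested genes (rows, in role order), with red above and blue below the CON mean. The 21 called genes have the same sign in the 3 sTREM-1 columns, with Nupr1 lowest, and Phgdh, Pycr1, Aldh18a1, Mthfd2, Slc7a1, Eprs and Xpot, which were not called, change sign among them, while Chac1, a gene of about 100 counts, also varies among the CON columns.

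The libraries held 40070633 to 45877107 counts, and the biological coefficient of variation within groups was 3.99%. Within a group, pairs of libraries varied beyond counting noise (chi-square per gene 3.45 to 4.99). Each was kept as a replicate, although such spread can also be technical. Of 12 microglia and macrophage markers, 11 were tested, with 4 higher and 0 lower after sTREM-1. Among all tested genes 16.5% were higher and 14.1% lower, and among those at 20 CPM or more 25.1% and 20%. The summed level of the 12 markers was 2644 to 2678 CPM in the CON group and 2907 to 2980 CPM in the sTREM-1 group. Most of that difference was Csf1r, the receptor for CSF1, with 521 ± 3.13 CPM in CON and 753 ± 20.5 CPM in sTREM-1 (SD, n = 3 each), while Cd68 and Tyrobp did not pass the test (adjusted p = 0.249 and 0.261). Aif1, which encodes the microglial protein IBA-1, was listed at 0 in all libraries, and the homeostatic markers Tmem119, P2ry12 and Cx3cr1 were at most 1.77 CPM on average in both groups. Neuronal, fibroblast and epithelial markers summed to less than 1 CPM in every library, and of 4 astrocyte markers only Aldoc, a glycolytic enzyme gene, was tested (higher after sTREM-1). Trem1 itself was low, at 17 to 42 counts per CON library and 20 to 32 per sTREM-1 library (adjusted p = 0.681). The part of these marker differences in the results above was not tested, and a change in the cells' composition and a change of RNA per cell cannot be told apart in bulk RNA.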

How the data were processed

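BV2 RNA was sequenced by the authors in 3 CON and 3 sTREM-1 libraries, whereas the methods give a larger number per group. The methods name FastQC, RSEM and edgeR; the submitters' processing notes list HISAT2 2.0.4 and human genome builds, although the cells are mouse. The annotation, the counter's settings and the use of strand are not given in the sources used here, so reads of overlapping, antisense or closely similar genes may be misassigned. The deposited values are whole-number counts per gene symbol, not normalized. All of the table's value columns were used, and no row lacked a gene name.

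In R 4.3.3 with edgeR 4.0.16, filterByExpr (minimum count 10) kept 14120 genes, TMM factors scaled the libraries, and CON and sTREM-1 were compared by the quasi-likelihood F-test without covariates; an adjusted p under 0.05 was a call. Each standard error is the absolute log2 fold change over the square root of F. The 95% intervals are not adjusted for multiple testing. CPM use TMM-scaled library sizes. The floor of 3 counts covers counting error only. The genes and lists were chosen with earlier results of these data known. All 45 genes were named, and in each of the 7 lists the gene of smallest p per direction, except 2 that are not reported here. The pairs for ratios and the 20 CPM background were added after the data were seen. Exon lengths are from GENCODE M21 (GRCm38), which need not be the annotation behind the counts. Symbols matched to promoter sequences of RefSeq for 35 of 45 genes.

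The fit was first tested on simulated counts with at most 200 changed genes, fewer than were called in these data. Its outcome is not used as support for the calls. Alternatives were RLE, upper-quartile or no scaling factors, 2 other filters, DESeq2 1.42.0, limma-voom (limma 3.58.1), a replicate block, each library left out and a 1.2-fold minimum. No batch is labelled.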

Additional observations from a re-analysis of the deposited data

How the results depend on the processing

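Of the 21 genes called, 16 kept their call and direction under all 14 alternative fits, and Atf5, Asns, Aars, Sars and Yars lost it in at least 1. The number of all called genes was 4312 and ran from 3608 to 3863 without each library in turn; the genes called higher ran from 4 to 6, those lower from 12 to 16, the synthetases from 6 to 7 and the median log2 fold change of the listed genes from -0.037 to -0.017. With at least a 1.2-fold change, 1517 of all genes, 0 of the listed genes called higher, 4 called lower and 1 synthetase remained, since that rule removes small changes. Upper-quartile factors moved the median log2 fold change of the listed genes to -0.049, and they lowered that of all tested genes from -0.002 to -0.023. Genes near 0 changed sign without being called: Gars and Xpot with library totals only (-0.0068 and -0.0070) and with upper-quartile factors (-0.011 for both), and, with single libraries left out, Pycr1 (range -0.13 to 0.0019), Slc38a2 (-0.023 to 0.014), Xpot (-0.0036 to 0.022), Aldh18a1 (-0.028 to 0.019), Eprs (-0.016 to 0.0059) and Gars (-0.0011 to 0.014). With the replicate block, 4613 genes were called, 22 of them listed here; the block adds Iars (adjusted p = 0.0356). The replicate numbers did not pair the libraries, since libraries with the same number did not deviate together (correlations across genes of -0.018, -0.033 and -0.014). DESeq2 called 20 of the listed genes and limma-voom 21. Chac1, at 78 to 136 counts per library, had the widest interval of the tested genes listed, and Cth, Cbs and Vldlr had 0 to 6 counts and gave no test.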
